A study of Vitis vinifera with 6 samples.

Results

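The 9 genes described here encode the late steps of the flavonoid pathway, in which the red pigments of the grapevine (the anthocyanins) and the condensed tannins of its skins, seeds and leaves (the proanthocyanidins) are made. They were chosen by name and gene identifier from the annotation, 6 for the anthocyanin branch and 3 for the proanthocyanidin branch, and each was read by 1 probe of the 34369 gene probes on the array. RNA came from young leaves of *Vitis vinifera* cv Shiraz, taken at the onset of the visible phenotype by the labels but ahead of it by the study's own text, and was hybridized to 6 single-colour arrays. Of these, 3 carried OXNAC33 leaves, from independent transgenic lines that express the transcription factor gene *VviNAC33* under the constitutive *CaMV 35S* promoter, and 3 carried control leaves. The study names a vector control carrying *eGFP* as the counterpart of these lines, with a single-copy insertion in both kinds of plant. Its supplement shows 3 control lines in quantitative PCR, and its arrays used the RNA prepared for quantitative PCR. The labels say only control, so whether the 3 control arrays came from those lines is not stated and their spread may be partly technical. The comparison asks what constitutive expression of *VviNAC33* did to the transcripts of these genes in young leaves.

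In this pathway dihydroflavonol 4-reductase (DFR) makes leucoanthocyanidins and leucoanthocyanidin dioxygenase (LDOX) turns them into coloured anthocyanidins. The pathway forks at the products of these enzymes. UDP-glucose:flavonoid 3-O-glucosyltransferase (UFGT) adds the sugar that stabilizes an anthocyanin, the anthocyanin O-methyltransferase AOMT1 methylates it, and the glutathione S-transferase GST4 and a MATE-type carrier (anthoMATE) take part in moving it into the vacuole. Leucoanthocyanidin reductases (LAR1 and LAR2) and anthocyanidin reductase (ANR) instead make the flavan-3-ols that are the building blocks of proanthocyanidins, LAR from the product of DFR and ANR from that of LDOX. In grape berries *UFGT*, *GST4* and *AOMT1* are known as genes activated by the MYBA regulators of colouring, while tannin genes are expressed early in young green organs.

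Values are log2 processed intensities after subtraction of the array's own 75th percentile, so that 0 is the level of that percentile, and differences are OXNAC33 minus control on the log2 scale. The arrays were scanned in 2 sessions, the first with 2 OXNAC33 arrays (replicates 1 and 2) and 1 control array (replicate 1), the second with 1 OXNAC33 array (replicate 3) and 2 control arrays (replicates 2 and 3). All 9 probes were well above background on all 6 arrays and none was saturated, with processed intensities between 102.1 and 11947. *VviNAC33* itself (VIT_19s0027g00230) stood at −0.54, −3.89 and −0.998 on OXNAC33 arrays 1 to 3, against −5.22, −4.14 and −4.01 on the control arrays. All 3 OXNAC33 arrays lay above the controls, replicate 2 only just, and the difference of 2.65 did not pass the test (limma, adjusted p = 0.116). The 6 leaf photosynthesis genes used to check the tissue lay well above background on every array, between 1.32 and 7.64, and the groups overlapped in all 6. The largest difference among them was in the chlorophyll-binding protein gene *CAB-1* of light-harvesting complex II (VIT_07s0005g02220), at 4.63, 6.78 and 4.46 on OXNAC33 arrays 1 to 3, against 7.64, 6.43 and 7.18 on the control arrays. It differed by −1.79 (95% interval −3.37 to −0.20; limma adjusted p = 0.144), and its part in the differences below was not tested.

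Of the 9 genes, 8 could be tested, and none of these passed the threshold of 0.05 on the adjusted p (limma, Benjamini-Hochberg over 23907 probes), where 5.02% of all probes tested did (3.33% lower and 1.69% higher in OXNAC33). At an unadjusted p under 0.05 there were 2 genes of the 8, *DFR* and *LDOX*, both lower in OXNAC33, against 27.3% of all probes in either direction and 15.6% lower. The same 2 genes were the only ones of the 8 in which the OXNAC33 and control arrays did not overlap, in both with OXNAC33 below, against 35.5% of all probes without overlap 20.4% with OXNAC33 below and 15.1% with OXNAC33 above. With 2 genes of 8, the members' counts were near these shares, and nothing particular to the late genes is read from them. The median difference was −0.67 over the 6 anthocyanin genes and −0.67 over all 8 genes tested, against −0.01 over all probes tested.

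**Figure D1:**
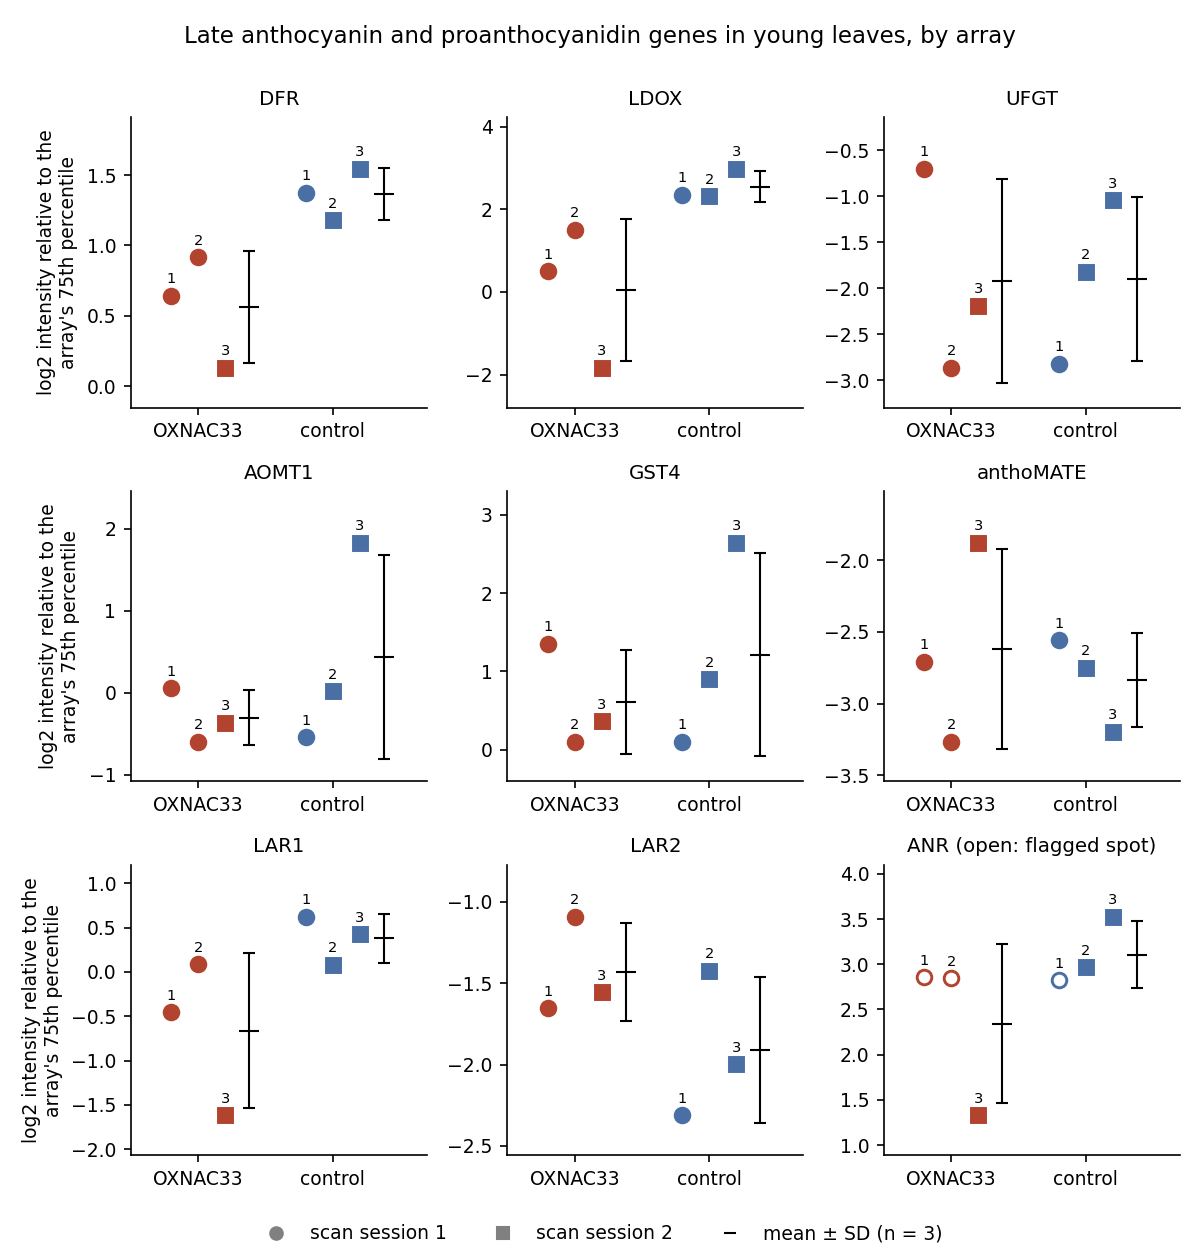
Log2 intensity above or below the array's own 75th percentile (y axis, a separate scale for each gene) for the 9 genes on the 3 OXNAC33 and 3 control arrays. Numbers are replicates, circles and squares the 2 scan sessions, bars the mean ± SD, and open symbols the 3 *ANR* spots with an outlier flag; only *DFR* and *LDOX* show no overlap between the groups.

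Both *LDOX* and *DFR* had all 3 OXNAC33 values below all 3 control values. *LDOX* (VIT_02s0025g04720) stood at 0.50, 1.51 and −1.84 on OXNAC33 arrays 1 to 3, against 2.35, 2.32 and 2.98 on control arrays 1 to 3. Every OXNAC33 array was below every control array, and OXNAC33 replicate 3 was far below the other two. The groups averaged 0.05 ± 1.72 and 2.55 ± 0.37 (SD, n = 3 each), a difference of −2.50 (SE 0.81, 95% interval −4.42 to −0.57), or 5.64-fold lower in OXNAC33, with a limma adjusted p of 0.109. The change ranked 285th from the lowest of 23907 probes, and the SD among OXNAC33 arrays was larger than for 98.3% of probes. Within the first scan session the *LDOX* difference was −1.35, and within the second −4.49.

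OXNAC33 replicate 2 was the array on which the *VviNAC33* probe read near the control level. The study picked its 3 lines for high *VviNAC33* by quantitative PCR, unlike this reading, and the labels do not match replicates to lines. Leaving out this array gave *LDOX* a difference of −3.22 and a limma adjusted p of 0.0473, past the threshold. In that fit of 5 arrays 10.7% of all probes were called, and *LDOX* was the only one of the 8 genes. Leaving out OXNAC33 replicate 3 instead gave −1.55, the smallest difference for this gene in any fit. Across the lines, replicate 2 had the lowest *VviNAC33* value and the *LDOX* value nearest the controls, while replicate 1 had the highest *VviNAC33* value and replicate 3 the lowest *LDOX* value. A relation over 3 lines was not tested.

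*DFR* (VIT_18s0001g12800) showed the same order of all 6 arrays as *LDOX*, over a smaller range. It stood at 0.64, 0.92 and 0.13 on OXNAC33 arrays 1 to 3, against 1.38, 1.18 and 1.54 on the control arrays. The groups did not overlap, although OXNAC33 replicate 2 and control replicate 2 were close. The means were 0.56 ± 0.40 and 1.37 ± 0.18, a difference of −0.80 (SE 0.26, 95% interval −1.42 to −0.19), or 1.75-fold lower in OXNAC33, with a limma adjusted p of 0.108. Within the scan sessions the differences were −0.60 and −1.23.

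*UFGT*, *AOMT1* and *GST4*, which act on anthocyanins after LDOX, overlapped between the groups, and none of their differences passed the test. *UFGT* (VIT_16s0039g02230) stood at −0.70, −2.86 and −2.19 on OXNAC33 arrays 1 to 3, against −2.82, −1.82 and −1.04 on the control arrays. Both groups ran from a low to a high array over nearly the same range. The difference was −0.03 (SE 0.66, 95% interval −1.60 to 1.55; limma adjusted p = 0.985), and its sign turned under other settings, among them quantile scaling with 0.06. *AOMT1* (VIT_01s0010g03510) stood at 0.06, −0.60 and −0.37, against −0.54, 0.02 and 1.83 in the controls. Here 1 control array, replicate 3, lay above the other 5. The difference was −0.74 (SE 0.60, limma adjusted p = 0.473), and −0.04 without control replicate 3.

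*GST4* (VIT_04s0079g00690) stood at 1.36, 0.10 and 0.37 on OXNAC33 arrays 1 to 3, against 0.10, 0.90 and 2.65 on the control arrays. Control replicate 3 was again the highest, followed by OXNAC33 replicate 1. The difference was −0.61 (SE 0.68, limma adjusted p = 0.604), and turned to 0.11 without control replicate 3. For *UFGT*, *AOMT1* and *GST4* alike the difference was positive within the first scan session (1.04, 0.27 and 0.63) and negative within the second (−0.76, −1.29 and −1.40).

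Control replicate 3 exceeded the mean of the other 2 controls 4.42-fold for *GST4*, 4.25-fold for *AOMT1* and 2.42-fold for *UFGT*, which placed these genes at the 99.7, 99.7 and 98.4 percentiles of 23456 probes for this excess. *DFR* (1.20-fold) and *LAR1* (1.05-fold) showed little of it and *LDOX* 1.56-fold, while *anthoMATE* was at 0.69 times the other controls. Control replicate 2, scanned in the same session, did not share the excess, and whether a property of this leaf sample or of this array went with it was not tested.

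*anthoMATE* (VIT_16s0050g00930), the transport gene, did not follow the other 3. It stood at −2.71, −3.27 and −1.88 on OXNAC33 arrays 1 to 3, against −2.56, −2.75 and −3.20 on the control arrays. Its 2 extremes were both OXNAC33 arrays, with the controls between them. The difference was 0.22 (SE 0.38, 95% interval −0.70 to 1.14; limma adjusted p = 0.751), and turned to −0.13 with normexp background correction and to −0.15 without OXNAC33 replicate 3.

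**Figure D2:**
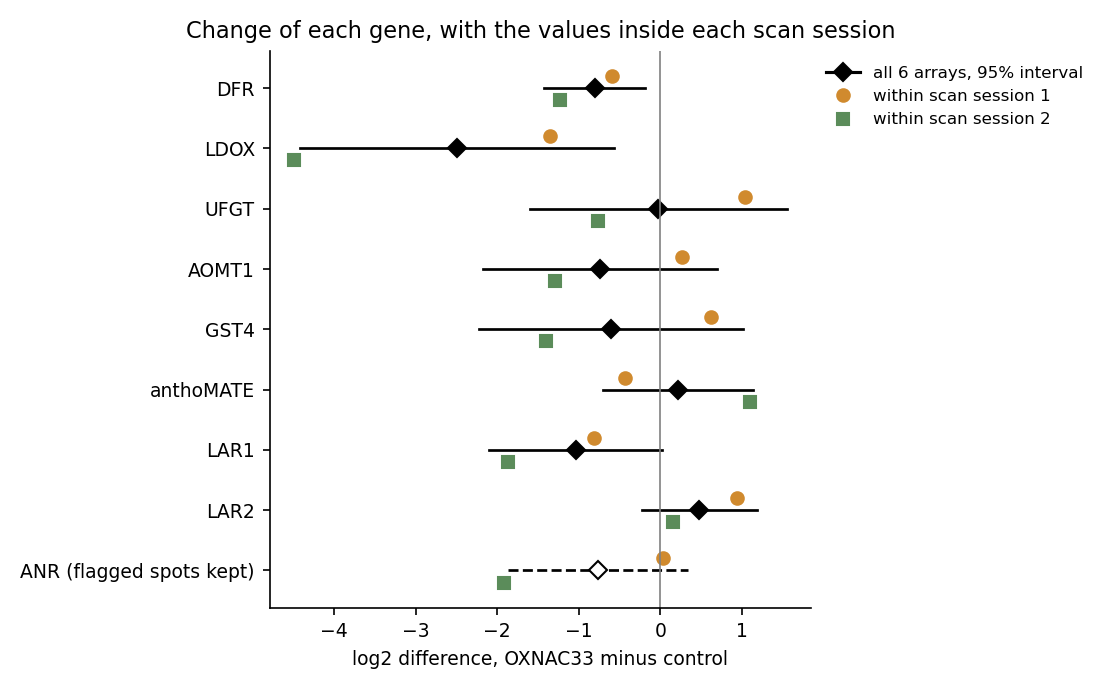
Log2 difference OXNAC33 minus control (x axis) for each gene, as the estimate from all 6 arrays with its 95% interval (diamond and line) and as the difference of means within scan session 1 (circle) and session 2 (square). The intervals of *DFR* and *LDOX* lie below 0, both before adjustment over all probes. The sessions point in opposite directions for *UFGT*, *AOMT1*, *GST4* and *anthoMATE*. *ANR* (open, dashed) is from the fit that kept flagged spots, with 0.03 in session 1 and −1.92 in session 2.

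In the proanthocyanidin branch the 2 leucoanthocyanidin reductase genes had opposite signs. *LAR1* (VIT_01s0011g02960) stood at −0.45, 0.09 and −1.62 on OXNAC33 arrays 1 to 3, against 0.63, 0.08 and 0.42 on the control arrays. OXNAC33 replicates 1 and 3 lay below all controls, and OXNAC33 replicate 2 lay level with control replicate 2. The means were −0.66 ± 0.87 and 0.38 ± 0.27, a difference of −1.04 (SE 0.44, 95% interval −2.10 to 0.02), or 2.06-fold lower in OXNAC33, with a limma adjusted p of 0.190. It was −0.81 within the first scan session and −1.87 within the second.

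*LAR2* (VIT_17s0000g04150) stood at −1.65, −1.09 and −1.55 on OXNAC33 arrays 1 to 3, against −2.31, −1.42 and −1.997 on the control arrays. The groups overlapped, with the highest value in OXNAC33 and the lowest in the controls. The difference was 0.48 (SE 0.30, 95% interval −0.23 to 1.19; limma adjusted p = 0.345), with 0.94 within the first session and 0.16 within the second. Taken as *LAR1* minus *LAR2* inside each array, which does not depend on the scaling between arrays, the values were 1.20, 1.18 and −0.06 in OXNAC33 and 2.94, 1.51 and 2.42 in the controls. All 3 OXNAC33 values were below all 3 control values, a difference of −1.52. This pair was chosen after its values were seen, so the difference is given as a description, with no test.

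*ANR* (VIT_00s0361g00040) had no test, because its spot carried an outlier flag of the scanner software on all 3 arrays of the first scan session, in both groups. On the unflagged arrays of the second session it stood at 1.33 in OXNAC33 replicate 3, against 2.97 and 3.53 in control replicates 2 and 3. The single OXNAC33 array was thus below both controls, with a difference of −1.92 from their mean. The flagged spots read 2.86 and 2.84 in OXNAC33 replicates 1 and 2, against 2.82 in control replicate 1. With these spots kept, an alternative added after the data were seen, the means were 2.34 ± 0.88 in OXNAC33 and 3.11 ± 0.37 in the controls (SD, n = 3 each). The difference was then −0.76 (SE 0.46, 95% interval −1.87 to 0.34; limma adjusted p = 0.334 over 24112 probes), with OXNAC33 replicate 3 the lowest and control replicate 3 the highest of the 6 values.

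The branches as wholes were set against each other inside each array, as the mean deviation from the control mean of the 6 anthocyanin genes less that of *LAR1* and *LAR2*, *ANR* being left out for its flags. This gave 0.00, −1.11 and −0.28 on OXNAC33 arrays 1 to 3, against −0.41, −0.26 and 0.67 on the control arrays. The ranges overlapped broadly, and the difference of −0.46 was smaller than the SD within either group (0.58 and 0.59). Without *DFR* and *LDOX* it was −0.0072. DFR also supplies LAR, whereas LDOX lies past that fork and is shared only with ANR, which was left out here. Taken apart, *DFR* and *LDOX* together averaged −1.39, −0.75 and −2.81 on the OXNAC33 arrays, against −0.10, −0.21 and 0.30 on the control arrays, while *UFGT*, *AOMT1*, *GST4* and *anthoMATE* together averaged 0.27, −0.89 and −0.25, against −0.69, −0.14 and 0.83.

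**Figure D3:**
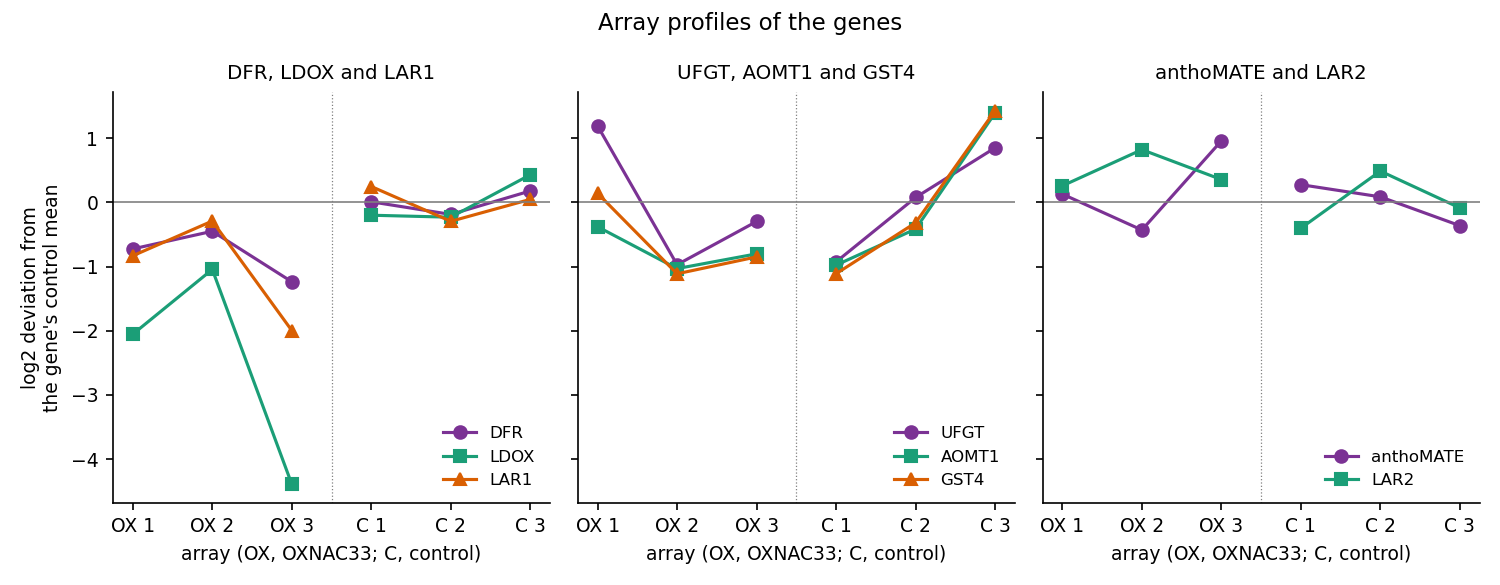
Log2 deviation of each gene from its own control mean (y axis) on the 3 OXNAC33 and 3 control arrays (x axis), for 3 sets of genes. *DFR*, *LDOX* and *LAR1* are lowest on OXNAC33 array 3, *UFGT*, *AOMT1* and *GST4* are high on control array 3, and *anthoMATE* and *LAR2* follow neither pattern.

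The genes also differed in which other genes had the most similar profile, measured as the root-mean-square distance over the 6 arrays after each gene was centred on its own mean. *AOMT1* and *GST4* were nearest to each other, at 0.22 log2 units, and *UFGT* was nearest to *GST4* (0.49). These 3 genes put the arrays in the same order except for the top pair, with OXNAC33 replicate 2 and control replicate 1 at the bottom. *DFR* and *LAR1* were nearest to each other among the 8 genes compared, *ANR* being left out (0.32), but among the enzymes upstream *DFR* had a closer neighbour in chalcone isomerase (VIT_07s0151g01060, 0.19), and *LDOX* was closest to the chalcone synthase gene *CHS2* (0.35). *LAR2* was closest to a flavonol synthase gene (VIT_18s0001g03430, 0.23). Upstream genes entered this comparison only if they were tested and had values on all 6 arrays. This left *CHS2*, chalcone isomerase and this flavonol synthase gene as the only upstream candidates. A small distance can also come from a small range, and 6 arrays of 2 groups give no test of it.

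Earlier steps of the pathway were looked at through a list of 8 upstream genes, of which 4 passed the filter on dim probes. None of the 4 was called, and 3 had all OXNAC33 values below all control values, against 5.02% of all probes called and 20.4% below. Further early-step genes, which the study had picked on these arrays, were kept in a separate list described below. Among them was a flavonoid 3',5'-hydroxylase gene that was called lower, so the count of calls depends on how the lists were split. *CHS2* (VIT_14s0068g00920), which begins the pathway, stood at 2.37, 2.28 and −0.88 on OXNAC33 arrays 1 to 3, against 3.64, 3.53 and 4.02 on the control arrays, a difference of −2.48 (limma adjusted p = 0.125). As in *LDOX*, OXNAC33 replicate 3 was the lowest by a wide margin. The flavanone 3-hydroxylase gene *F3H1* (VIT_04s0023g03370) differed by −2.59 (adjusted p = 0.0771, with 1 flagged spot in each group left out), chalcone isomerase by −1.02 (adjusted p = 0.0955) and flavonol synthase by 0.14 (adjusted p = 0.808). The median of the 4 was −1.75.

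Of 13 other genes annotated for decorating or moving flavonoids, 10 were tested, with 5 positive and 5 negative differences and a median of 0.20. In 3 genes all OXNAC33 values were above all control values and in 1 below, against 15.1% and 20.4% of all probes. The differences of the 10 genes ran from −3.03 to 2.78. A single one was called: a flavonoid glucosyltransferase gene (VIT_12s0034g00080) at 0.47, 0.54 and 0.62 on OXNAC33 arrays 1 to 3, against −2.61, −1.48 and −2.61 on the control arrays, rose by 2.78 (limma adjusted p = 0.0361, where 1.69% of all probes were called higher). The call was lost with session or replicate as a block, with normexp, without the filter on dim probes and without any 1 control array. In these fits limma called 0 probes of the whole array. The call was also lost without OXNAC33 replicate 3, where limma called 0 probes higher. The gene's difference was 3.11 and 2.67 within the 2 scan sessions. Its 3 OXNAC33 values lay close together, unlike those of *LDOX* or *LAR1*.

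A further 13 flavonoid genes are ones the study had picked on these same arrays, so that their directions, counts without overlap and calls are not independent evidence. The shares over all probes are given beside the counts for scale only. All 13 were tested, 12 were below and 1 above, and 4 were called, all lower in OXNAC33 (over all probes, 20.4% were below, 15.1% above, and 3.33% called lower). These were an anthocyanidin 3-O-glucosyltransferase gene (VIT_16s0022g01970, −3.28), a flavonoid 3',5'-hydroxylase gene (VIT_08s0007g05160, −2.96), a flavonol 3-O-glucosyltransferase gene (VIT_19s0014g02070, −2.11) and an anthocyanidin rhamnosyltransferase gene (VIT_00s0820g00020, −1.44). These 4 calls were lost in the fits that called 0 probes (4591 to 6844 probes at an unadjusted p under 0.05). Over the whole array only 2 probes were called lower without OXNAC33 replicate 1, and 1 without OXNAC33 replicate 3. With the methods' t-test after adjustment it was also 1, so the 4 calls did not all hold in these fits either. Homologous glycosyltransferase genes can share probe signal, and the probe sequences were not used here.

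**Figure D4:**
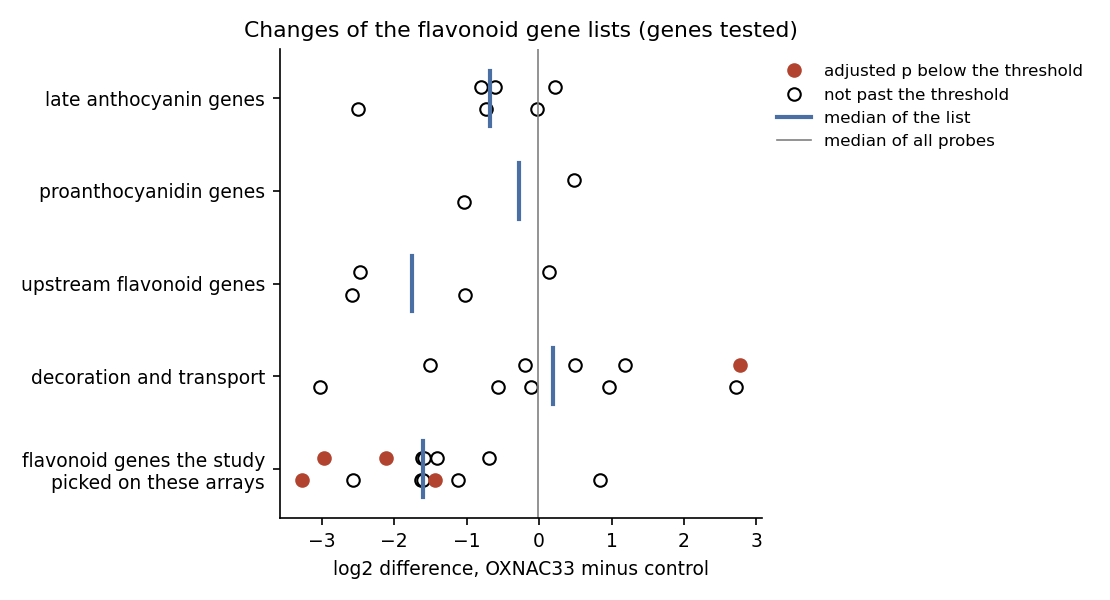
Log2 difference OXNAC33 minus control (x axis) of the tested genes in each flavonoid list; filled points have an adjusted p below 0.05, blue bars are list medians and the grey line is the median of all probes. The median is −0.67 for the late anthocyanin genes, −1.75 for the upstream genes and 0.20 for the decoration and transport genes.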

How the data were processed

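Young leaf RNA of 3 OXNAC33 and 3 control samples, labelled with Cy3, went onto a custom grapevine array each. The authors extracted the scans with Feature Extraction 10.5.1.1 (per the file headers), and the deposited files give a processed intensity, background-corrected within the array, and flags for each spot. Here, log2 processed intensity minus the 75th percentile of the array was used. Outlier-flagged spots were dropped (376 to 607 an array in the first scan session, 6 to 20 in the second). Tested probes were well above background on every array of 1 group or both, with 2 or more values in each. Differences were tested in limma 3.58.1 (R 4.3.3; lmFit, eBayes) with Benjamini-Hochberg adjustment over 23907 probes. Data were simulated with each probe's own spread, independent noise, no scan session effect and 200 of 23228 probes changed. There 52.2% of log2 changes of 2 and 74.1% of 3 were recovered, so that smaller ones can be missed. The real arrays differ from that setting, so these percentages are not their recovery rates. The number of arrays limits the precision.

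The genes and lists were chosen with earlier results of these data known. Named beyond the 9 genes were *VviNAC33*, list genes past the threshold or otherwise up to 4 with the largest change, and the nearest profiles. Genes were named from the gene group's rule and the study's tables. No sequence or position is given. Alternatives were other scalings, normexp on median signals (the files give no mean signals), the authors' table of processed intensity, filters, blocks for scan session and replicate number, array weights, leaving out each array, and the methods' t-test.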

Additional observations from a re-analysis of the deposited data

How the results depend on the processing

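The count of members called, 0 of 8, became 1 without OXNAC33 replicate 2 (*LDOX*) and 1 with the methods' t-test without adjustment (*DFR*), and was 0 under the other 19 alternatives. The number of probes called, 1200, was 1806 with a trended, robust prior, 0 with normexp, with no filter on dim probes and with scan session as a block (5188, 6314 and 6844 at an unadjusted p under 0.05), and 2 with the methods' t-test after adjustment and 5805 without it. It was 9, 2554 and 1 without OXNAC33 replicates 1, 2 and 3, and 0 without control replicate 1, 2 or 3 (5376, 4750 and 4591 unadjusted). Under the other 8 it was within 1.5 times. The cause of these differences was not tested. *DFR*, *LDOX*, *LAR1* and *AOMT1* stayed lower and *LAR2* higher in OXNAC33 under all 21 alternatives run. *UFGT* reversed to 0.058 with quantile scaling, 0.10 with array median scaling, 0.17 with spike-in scaling, 0.14 with session as a block and 0.025 with array weights. Without 1 array it ranged from −0.63 to 0.45, *GST4* from −1.16 to 0.11 and *anthoMATE* from −0.15 to 0.54; *anthoMATE* was −0.13 with normexp. The difference between the branches stayed within 1 SD of −0.46, between −0.69 and −0.13 without 1 array. It was −0.0072 with *DFR* and *LDOX* left out (an alternative added after the data were seen). The median of all probes moved to 0.11 with array median scaling, 0.18 with spike-in scaling and −0.23 with normexp.

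Samples with the same replicate number deviated together in numbers 1 and 3 (r = 0.26 and 0.19 over probes) and apart in number 2 (r = −0.22), so the numbers were not taken to pair the samples. Only number 2 joined arrays of different scan sessions. Within a session, r was also 0.14 (OXNAC33 replicate 2, control replicate 1) and 0.27 (OXNAC33 replicate 3, control replicate 2). Between sessions it was −0.41 (OXNAC33 replicate 3, control replicate 1), −0.22 and −0.04 (OXNAC33 replicate 1, control replicates 3 and 2) and 0.04 (OXNAC33 replicate 2, control replicate 3). The part of the session in these values was not tested. With replicate number as a block, 0 probes and 0 members were called (5997 probes at an unadjusted p under 0.05).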
